A study of Mus musculus with 4 samples.

Results

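The red cell genes of embryonic mouse dermis are described here through 19 of the 45101 probe sets on the array, which name 11 of its 19324 genes. They comprise 7 probe sets of embryonic globin chains (Hbb-y, Hbb-bh1 and Hba-x), 8 of adult chains (Hba-a1, Hba-a2, Hbb-b1, Hbb-b2, Hbb-bs and Hbb-bt) and 4 of the red cell genes Alas2 and Slc4a1. A probe set is the group of short probes that reports a transcript. The members are all probe sets whose platform annotation names 1 of the 8 listed genes, 18 in number, and 1 that names Hba-a2 alone. Dorsal skin was taken at E15.5, in days of embryonic development, epidermis was parted from dermis with the enzyme dispase, and dermal RNA was hybridised to 4 Affymetrix MOE430 2.0 arrays. The 2 arrays labelled mutant come from KRT14-Cre Ctnnb1(Ex3)fl/+ embryos, and the 2 labelled control from littermates whose genotype is not given in the sources used here. Cre is driven by the keratin 14 promoter in surface epithelium, where it removes an exon of 1 Ctnnb1 allele, and the beta-catenin made from that allele escapes degradation. The strain is not named in the labels. The recombined tissue is therefore the epithelium and not the dermis that was measured. The question put to the arrays is how dermis differs beneath such an epithelium.

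Haemoglobin joins a pair of alpha-like chains to a pair of beta-like chains around heme. In the mouse, the first red cells arise in the yolk sac and make embryonic chains, zeta from Hba-x and the beta-like chains from Hbb-y and Hbb-bh1. Red cells that later leave the fetal liver make the adult chains from Hba-a1, Hba-a2 and the adult beta genes. Adult beta genes differ between strains, with Hbb-b1 and Hbb-b2 in one haplotype and Hbb-bs and Hbb-bt in the haplotype of C57BL/6. Alas2 is the erythroid form of the enzyme that starts heme synthesis, and Slc4a1 is band 3, the anion exchanger of the red cell membrane. Globin RNA in skin is known to be carried there by blood.

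The 250 bases before the transcription start are shown for the embryonic genes Hbb-y and Hba-x, whose signals moved together between arrays below, and for 1 adult gene of each locus. The sequences are from RefSeq on GRCm38.p6, whose promoter table held 4 of the 8 listed genes, and Hbb-bs is the adult beta gene shown. Capitals mark the motif CACCC, the box CCAAT, the factor site GATA, and both TATAA and the related form ATAAA, searched on either strand, where a longer run can hold both of the last.
Hbb-y, chr7:103853208-103853457, minus strand: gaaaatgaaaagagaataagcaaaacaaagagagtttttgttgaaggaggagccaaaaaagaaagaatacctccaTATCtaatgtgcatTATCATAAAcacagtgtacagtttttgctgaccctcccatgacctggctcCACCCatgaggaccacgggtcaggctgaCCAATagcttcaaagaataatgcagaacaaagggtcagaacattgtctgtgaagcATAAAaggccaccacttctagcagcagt
Hba-x, chr11:32276350-32276599, plus strand: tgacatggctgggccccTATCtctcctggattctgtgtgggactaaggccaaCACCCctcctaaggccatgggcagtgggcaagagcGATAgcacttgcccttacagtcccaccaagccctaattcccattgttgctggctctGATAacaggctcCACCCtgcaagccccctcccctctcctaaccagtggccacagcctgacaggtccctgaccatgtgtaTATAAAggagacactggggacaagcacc
Hbb-bs, chr7:103827929-103828178, minus strand: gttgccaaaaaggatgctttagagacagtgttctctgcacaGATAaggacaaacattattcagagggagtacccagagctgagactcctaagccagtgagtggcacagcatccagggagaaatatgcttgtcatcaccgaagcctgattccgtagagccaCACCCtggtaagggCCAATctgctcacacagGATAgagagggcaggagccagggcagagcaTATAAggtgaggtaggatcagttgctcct
Hba-a1, chr11:32283422-32283671, plus strand: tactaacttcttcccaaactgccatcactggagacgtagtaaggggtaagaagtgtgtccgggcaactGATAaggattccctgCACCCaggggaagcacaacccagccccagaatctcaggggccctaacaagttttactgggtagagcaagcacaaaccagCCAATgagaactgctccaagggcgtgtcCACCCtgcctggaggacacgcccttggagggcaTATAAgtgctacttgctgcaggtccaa
CACCC, bound by the erythroid factor KLF1 in the adult beta promoter, occurred once in Hbb-y and Hbb-bs and in 2 places in Hba-x and Hba-a1. CCAAT occurred once in each of these except Hba-x, where it was not found. GATA occurred in all 4, and a TATAA run or, in Hbb-y, the form ATAAA began 27 to 29 bases before the start in each, as at -28 in Hbb-y and -27 in Hba-a1. Over 32817 promoters of the same length, 52% held CACCC, 33.8% CCAAT, 53.6% GATA, 22.8% TATAA and 37.3% ATAAA, so these short runs are common. The Hba-a1 and Hba-a2 promoters shared an identical run of 247 bases, and the probe sets that name both genes do not tell their transcripts apart either. Between the Hbb-bs and Hbb-bt promoters the longest identical run was 14 bases, so the Hbb-bs sequence does not represent that of Hbb-bt.

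Before the results, the arrays and their labels need a word. Scaling had brought every array to a trimmed mean signal of 150.0. The targeted gene, Ctnnb1, had signals of 5335 and 4721 in control and of 4838 and 4397 in mutant dermis, with a log2 difference of -0.12 ± 0.14 (SE, limma adjusted p = 0.9999). This does not test the labels, since recombination is in the epithelium and the position of the probes relative to the exon was not examined. The dermal collagen gene Col1a1 gave 4101 to 5641 and the dermal gene Dpt 1053 to 3244, while the instrument records name the sample type as epidermis on all 4 arrays. Changed genes in the authors' deposited table number 153 probe sets, and in 0 of them were the deposited signals of the mutant label both above or both below those of the control label. Of 97 called higher in the authors' deposited table, 96 were brightest on control 1 and mutant 2, and all 56 called lower were dimmest there. The array labelled mutant 1 alone carried the Y-linked gene Eif2s3y (524, against 1.81 or less elsewhere), and mutant 2 alone carried cartilage RNA (Col2a1 at 2857, against 17.2 or less). Directions below are those of the array labels. Every mutant minus control value, and every statement on direction by label, therefore rests on labels that the authors' deposited table goes against, and whether labels were exchanged was not tested. For this reason values are given for each array. Where 4 values stand in a row, they are control 1, control 2, mutant 1 and mutant 2.

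No embryonic chain passed the test by label, and the arrays of each label lay far apart. All 6 tested embryonic probe sets were brightest on the arrays labelled control 1 and mutant 2, by ratios of 1.88 to 4.59 over control 2 among the controls and 1.38 to 3.0 over mutant 1 among the mutants. The adult chains, measured on the same RNA, gave ratios of 1.16 to 1.2 and 0.799 to 0.824 for the 4 bright probe sets that carry most of their signal.

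Hba-x, the embryonic alpha-like gene, gave signals of 977 on control 1 and 213 on control 2, beside 317 on mutant 1 and 815 on mutant 2. Control 1 and mutant 2 were high, control 2 and mutant 1 were low, and the labelled groups overlapped. Its log2 difference of mutant minus control was 0.14 ± 0.81 (SE, n = 2 per group, limma adjusted p = 0.9999). The difference between the controls was 2.12 on the log2(signal + 16) scale, and 0.715% of the 22519 tested probe sets differed as much between these arrays. Between the mutants it was 1.32, a size reached by 2.14% of tested probe sets.

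**Figure D1:**
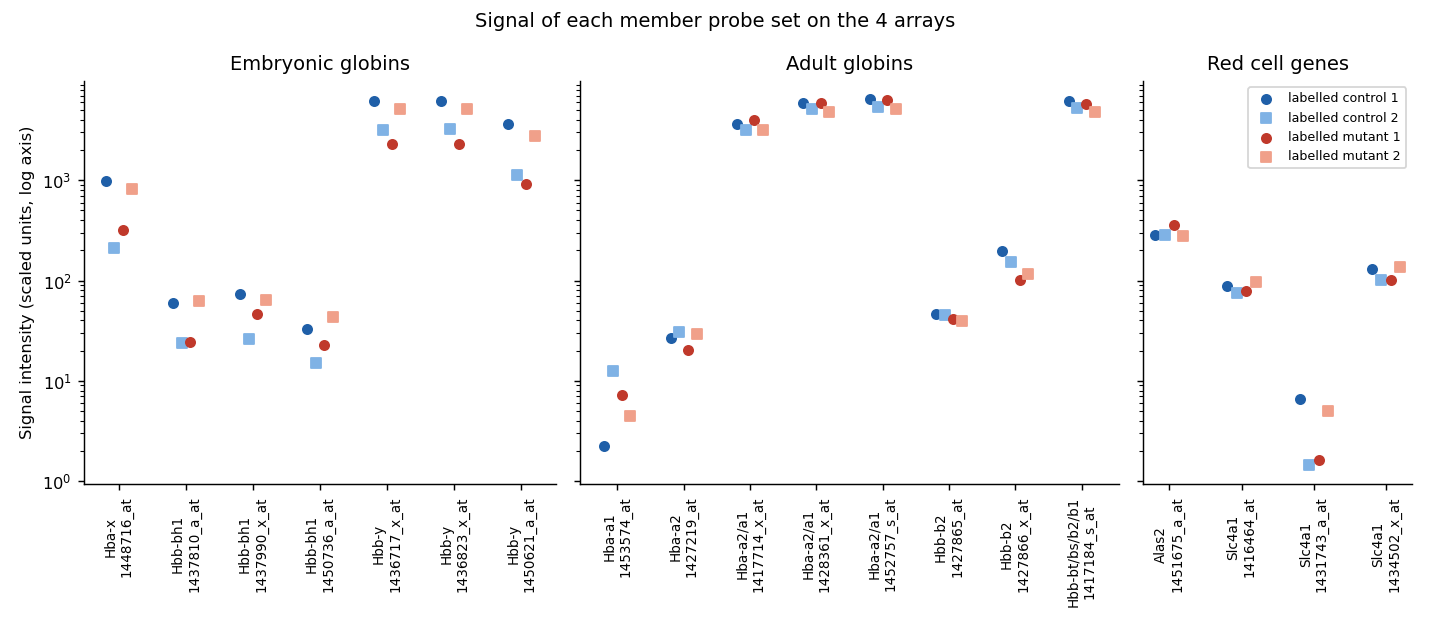
Signal intensity (log axis) of the 19 member probe sets on each of the 4 arrays, with 1 point per array and colours for the labels. Each tested embryonic probe set has control 1 and mutant 2 on top, while the 4 bright adult probe sets, between 3154 and 6415, have the arrays close together. Heights of different probe sets are not comparable as transcript amounts.

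Hbb-y, the embryonic beta-like gene that primitive red cells use as they mature, is reported by 3 probe sets. The probe set 1450621_a_at, whose probes share a gene, gave 3633 on control 1 and 1127 on control 2, beside 917 on mutant 1 and 2748 on mutant 2. Its log2 difference by label was -0.35 ± 0.74 (SE, n = 2 per group, limma adjusted p = 0.9999), while the ratio was 3.22 within the controls and 3.0 within the mutants. The probe set 1436823_x_at, of a kind whose probes can bind other transcripts, gave 6158, 3267, 2296 and 5170 in the same order. Its log2 difference was -0.38 ± 0.49, and its ratios within a label were smaller, at 1.88 and 2.25. The third, 1436717_x_at, gave 6144, 3183, 2282 and 5090 and so nearly the same values. The 3 probe sets thus ranked the arrays alike, with control 1 highest and mutant 1 lowest, and differed in how far apart the arrays lay.

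Hbb-bh1, the beta-like gene that primitive red cells use first, was dim on all 4 arrays. The probe set 1437990_x_at gave 74.0 on control 1 and 26.2 on control 2, beside 46.5 on mutant 1 and 64.3 on mutant 2, a log2 difference by label of 0.20 ± 0.41 (SE, n = 2 per group, limma adjusted p = 0.9999). The probe set 1437810_a_at gave 60.2, 23.7, 24.4 and 62.0, with a log2 difference of 0.03 ± 0.46. The third, 1450736_a_at, gave 33.1, 15.2, 22.5 and 43.1 and fell below the filter on dim probe sets, so it was not tested. Control 1 and mutant 2 were again the brighter arrays for both tested probe sets, though mutant 1 lay nearer to them on the first of these probe sets. The log2(signal + 16) scale understates differences at such signals.

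The adult alpha genes varied little from array to array. The probe set 1452757_s_at, shared by Hba-a1 and Hba-a2, gave 6415 on control 1 and 5362 on control 2, beside 6352 on mutant 1 and 5175 on mutant 2. Replicate 1 of each label was above replicate 2, the labels overlapped, and the log2 difference was -0.03 ± 0.17 (SE, n = 2 per group, limma adjusted p = 0.9999). The shared probe set 1428361_x_at gave 5945, 5120, 5877 and 4801 and a difference of -0.05 ± 0.17. The shared probe set 1417714_x_at gave 3657, 3154, 4000 and 3196, with mutant 1 and not control 1 on top. The 2 probe sets that name a single adult alpha gene, 1453574_at for Hba-a1 (2.24 to 12.5) and 1427219_at for Hba-a2 (20.2 to 31.0), lay below the filter and were not tested.

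The adult beta genes Hbb-b1, Hbb-b2, Hbb-bs and Hbb-bt share the probe set 1417184_s_at, which gave 6244 on control 1 and 5299 on control 2, beside 5826 on mutant 1 and 4799 on mutant 2. Its order of arrays was that of the shared alpha probe set 1452757_s_at, and mutant minus control came to -0.12 ± 0.17 in log2 (SE, n = 2 per group, limma adjusted p = 0.9999). These bright probe sets sat near the top of the array's range, with 129 to 177 probe sets brighter than 1417184_s_at and 111 to 136 brighter than 1452757_s_at on each array. The part that compression of bright signals plays in their small spread was not tested. The most intense Hbb-y probe set lay in the same range on control 1 and mutant 2, with 131 to 799 probe sets brighter over the 4 arrays.

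Hbb-b2 alone was named by 2 further probe sets, and these were the only members whose labelled groups did not overlap. The probe set 1427866_x_at gave 196 on control 1 and 152 on control 2, beside 102 on mutant 1 and 116 on mutant 2, a log2 difference of -0.60 ± 0.19 (SE, n = 2 per group) with an unadjusted p of 0.0252 and an adjusted p of 0.9999 in limma. The probe set 1427865_at gave 46.5, 45.3, 41.6 and 39.9, also lower on both mutant arrays, with a log2 difference of -0.13 ± 0.18. Both mutant arrays lay below both controls for 2 of the 19 members and above them for 0, against 11.8% and 8.69% of all tested probe sets, or 20.5% in either direction. The probe set that Hbb-b2 shares with the other adult beta genes, 1417184_s_at, overlapped between labels. Probes of the kind in 1427866_x_at can bind other transcripts, and whether its signal came from Hbb-b2 was not tested.

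The red cell genes outside the globin loci moved less than the embryonic chains. Alas2 (1451675_a_at) gave 285 on control 1 and 285 on control 2, beside 359 on mutant 1 and 279 on mutant 2, with a log2 difference of 0.14 ± 0.17 (SE, n = 2 per group, limma adjusted p = 0.9999). Its single high array, mutant 1, was one of the pair with low embryonic globin. Slc4a1 reached 131, 101, 102 and 138 on its brightest probe set, 1434502_x_at, and 89.2, 75.2, 78.7 and 97.6 on 1416464_at. Both Slc4a1 probe sets ranked control 1 and mutant 2 highest, with ratios of 1.30 and 1.19 within the controls and 1.36 and 1.24 within the mutants, and their log2 differences by label were 0.04 ± 0.22 and 0.08 ± 0.19. The third, 1431743_a_at, lay at 1.43 to 6.64 and was not tested. In bulk dermis, fewer red cells and less of a transcript per red cell cannot be told apart.

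Over all members, 15 of 19 probe sets passed the filter on dim signal and 4 did not. Of the 15, 0 passed the limma threshold of an adjusted p of 0.05 and 1 had an unadjusted p under 0.05, the Hbb-b2 probe set above. Over the whole array, 0% of 22519 probe sets passed and 0.924% had an unadjusted p under 0.05. The differences of the 19 ran from -0.60 to 0.28 with a median of -0.05, beside a median of -0.01 over all tested probe sets. The Hbb-y probe sets were lower by label and Hba-x and Hbb-bh1 higher, none past the threshold, so the embryonic genes had no shared direction by label. Leaving out 1 array turned the sign for 13 of the 15, all but the 2 probe sets that name Hbb-b2 alone. Groups that do not overlap keep their sign whichever array is left out, so this adds nothing to their lack of overlap.

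**Figure D2:**
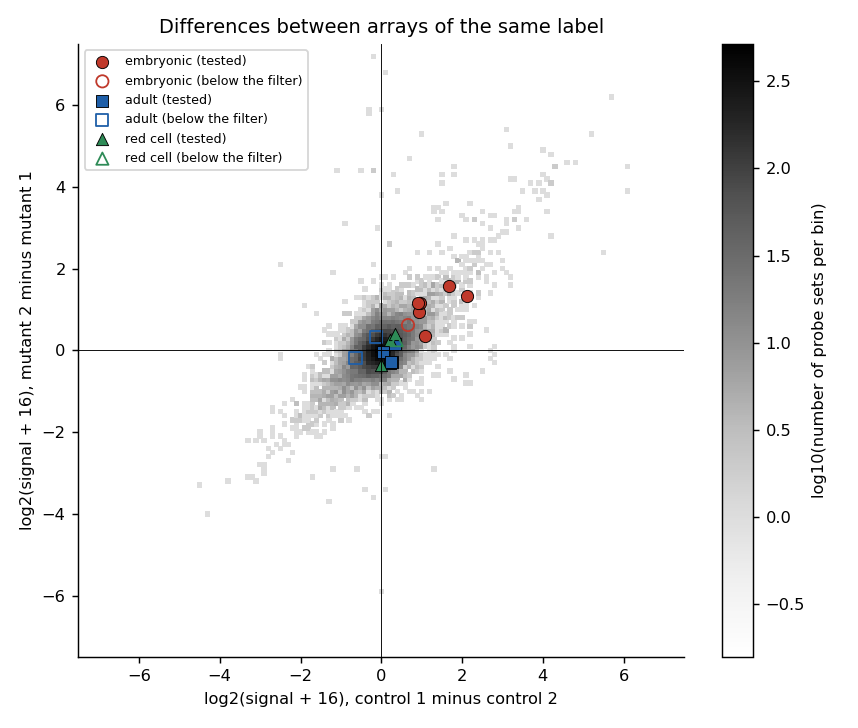
Difference in log2(signal + 16) between the 2 control arrays (x axis) and between the 2 mutant arrays (y axis), with shaded bins for all 22519 tested probe sets and symbols for the members. The embryonic probe sets lie at 0.66 to 2.12 on the x axis and 0.36 to 1.57 on the y axis, away from the 4 bright adult probe sets at 0.21 to 0.26 and -0.32 to -0.28.

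The pattern of arrays seen for the embryonic chains was shared by many other probe sets. Control 1 and mutant 2 were both above control 2 and mutant 1 for 6 of 6 tested embryonic probe sets, 0 of 6 tested adult ones and 2 of the 3 tested of red cell genes, the latter both of Slc4a1. The same held for 26.4% of all tested probe sets, and the reverse for 23.6%. These 6 embryonic probe sets stand for 3 genes and are not independent of each other. The median absolute difference between arrays of a label, over all tested probe sets, was 0.20 for control and 0.21 for mutant on the log2 scale, and the 95th percentile was 0.95 and 0.91. The scanner took control 2, then mutant 1, then control 1 and then mutant 2, on 1 day, and each array had a fluidics module of its own. Scan order therefore moves with the embryonic signal, and its part in the result was not tested.

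A difference of mean log2 signal, embryonic minus adult, was taken on each array from the brightest probe set of each gene. Its value on 1 array reflects probe brightness and is no ratio of transcripts, but its change between arrays does not depend on red cell amount if all chains scale with it. It was -2.95 on control 1 and -4.08 on control 2, beside -4.07 on mutant 1 and -2.83 on mutant 2. By label it averaged -3.51 ± 0.80 in control and -3.45 ± 0.87 in mutant (SD, n = 2 each), a difference of 0.06 (exact permutation test, two-sided, p = 0.667). The smallest p that 2 arrays against 2 allow is 0.333. Between arrays of a label it moved by 1.13 among controls, or 2.18-fold, and by 1.24 among mutants, or 2.36-fold.

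Within the beta-like genes the difference was -3.07, -3.84, -3.94 and -2.90 on control 1, control 2, mutant 1 and mutant 2, a difference between labels of 0.03 (exact permutation test, two-sided, p = 1). Within the alpha-like genes it was -2.69, -4.55, -4.26 and -2.64, a difference of 0.17 between labels (exact permutation test, two-sided, p = 0.667). The arrays were ranked with control 2 and mutant 1 low at both loci. The step between arrays of a label was larger for the alpha-like genes, at 3.63-fold among controls and 3.06-fold among mutants, than for the beta-like genes at 1.70-fold and 2.06-fold. The difference in step between loci was not tested, and the probe set chosen for Hbb-y has smaller ratios within a label than 1450621_a_at. The one chosen for Hbb-bh1, 1437990_x_at, is dim at 26.2 to 74.0, where the added 16 shrinks differences. Its ratio was 1.38 within the mutants and 2.83 within the controls, against 2.54 in both for 1437810_a_at.

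**Figure D3:**
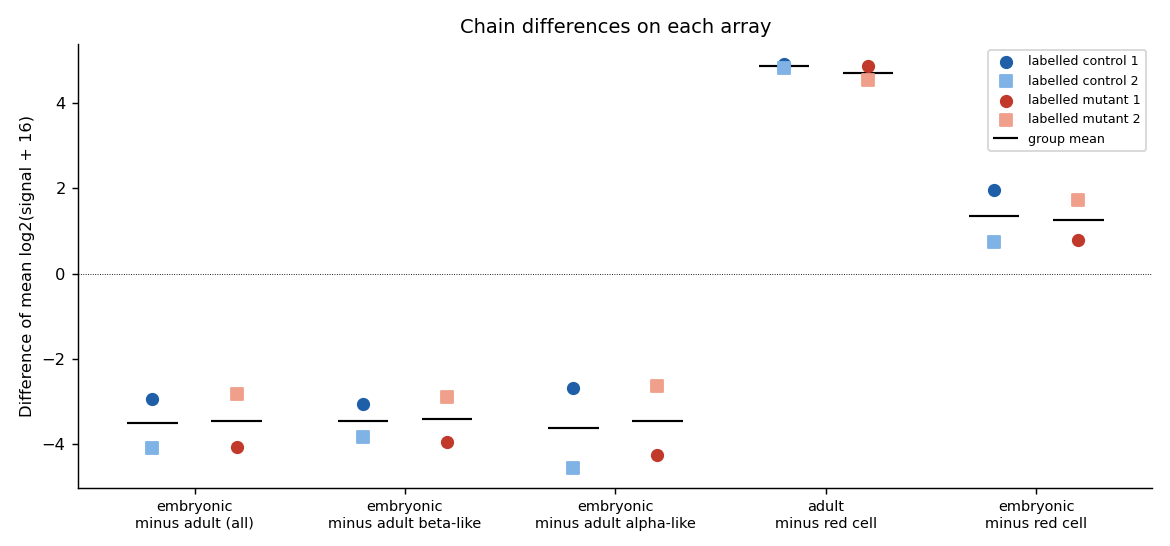
Differences between mean log2(signal + 16) of gene groups (y axis), with 1 point per array and a line at the mean of each label. The embryonic minus adult and embryonic minus red cell differences spread widely within each label, as from -4.08 to -2.95 among controls, while the label means lie close together. Only the spread within a column can be read, since the height of a column depends on probe brightness.

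Set against Alas2 and Slc4a1 in place of the adult chains, the embryonic chains again were higher on control 1 and mutant 2 than on the other arrays, with control 1 and not mutant 2 on top. The mean log2 level of Alas2 and Slc4a1 was 7.72, 7.55, 7.72 and 7.74 on control 1, control 2, mutant 1 and mutant 2, a difference by label of 0.09 (exact permutation test, two-sided, p = 0.667). Embryonic minus red cell was 1.96, 0.75, 0.79 and 1.72, a difference by label of -0.11 (exact permutation test, two-sided, p = 1). Adult minus red cell was 4.91, 4.83, 4.86 and 4.55, a difference of -0.17 (exact permutation test, two-sided, p = 0.667). Over the 4 arrays the level of embryonic chains spanned 1.37 on the log2 scale, that of adult chains 0.34 and the mean of Alas2 and Slc4a1 0.19. That mean joins genes with different orders of arrays, and singly Alas2 spanned 0.35 and Slc4a1 (1434502_x_at) 0.40, close to the adult chains.

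The other erythroid genes were taken from lists covering heme synthesis, the red cell membrane, transcription factors, globin switching factors and red cell enzymes. Of 53 genes on the lists that are not members, 48 were named by a probe set of a single gene and 35 of these were bright enough to be tested. By label 13 were higher and 22 lower, with a median of -0.06, and 0 passed the limma threshold or an unadjusted p of 0.05. Both mutant arrays lay above both controls for 1 and below them for 2 of the 35, against 8.69% and 11.8% of all tested probe sets. Tmod1, which caps actin filaments in the red cell membrane skeleton, gave 32.4, 71.9, 108 and 69.1, and its log2 difference of 0.66 ± 0.37 was the highest. Rhd, a Rhesus blood group protein, followed at 0.50 ± 0.29, with control 1 at 16.3 and the other arrays at 35.9 to 42.4. Sox6, a repressor of embryonic globin genes, came next at 0.40 ± 0.30 (SE, n = 2 per group, limma adjusted p = 0.9999 for all 3). It gave 31.4 and 54.3 on the controls and 47.6 and 75.4 on the mutants, highest on the array with cartilage RNA. Tmod1 ranked the arrays like the 4 skeletal muscle markers, which summed to 1566, 4565, 8660 and 3923. Whether muscle or cartilage cells gave these signals was not tested.

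At the other end, Cpox, an enzyme of heme synthesis, gave 109, 130, 89.9 and 102 and a log2 difference of -0.27 ± 0.18. Ldb1, a cofactor that bridges GATA1 complexes at globin enhancers, gave 377, 314, 314 and 254 and -0.27 ± 0.17. Lmo2, its partner in that complex, gave 301, 355, 323 and 224 and -0.26 ± 0.21 (SE, n = 2 per group, limma adjusted p = 0.9999 for all 3). Lmo2 and Ldb1 are also expressed outside red cells. The key erythroid factor Gata1 gave 58.9, 69.3, 71.5 and 46.7, and Klf1 lay below the filter at 13.8 to 36.9.

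By array, 12 of the 35 erythroid genes (34.3%) had control 1 and mutant 2 above the other arrays, and 10 (28.6%) had them below, beside 26.4% and 23.6% of all tested probe sets. Genes named from here to the end of the paragraph were chosen after their values were seen. Of the list of red cell enzymes and receptors, 6 of 10 tested genes ranked like the embryonic chains: Epor, Tfrc, Car2, Blvrb, Cat and Aqp1. Cat did so by a small margin, at 1316, 1281, 1137 and 1297. The same ranking held for 2 of 8 genes of heme synthesis and 1 of 5 of the membrane. It held for 1 of 6 transcription factors and 2 of 7 switching factors. Tfrc, the receptor that brings iron into erythroid and other dividing cells, gave 689 on control 1 and 396 on control 2, beside 460 on mutant 1 and 828 on mutant 2. Car2, a carbonic anhydrase of red cells and other tissues, gave 385, 185, 184 and 345. Bcl11a, a silencer of embryonic globin genes that is also expressed in other cell types, ran the other way, with 74.7, 251, 200 and 77.3. Bcl11a had a log2 difference by label of -0.13 ± 0.65 (SE, n = 2 per group, limma adjusted p = 0.9999).

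Markers of other cell types also moved between these arrays. The 6 leukocyte and macrophage markers summed to 6448 on control 1 and 3240 on control 2, beside 3698 on mutant 1 and 4888 on mutant 2, and 4 of the 6 ranked like the embryonic chains. The 6 megakaryocyte and platelet markers summed to 1990, 1321, 1840 and 1286, an order that differs from the embryonic one. Most of that sum was Pf4, at 1800, 1167, 1676 and 1093. Only 2 of these markers were bright enough to be tested, and the other, Itga2b, gave 103, 90.7, 84.7 and 84.9. The 6 endothelial markers summed to 2976, 2690, 2401 and 2848, highest on control 1 and mutant 2, and 2 of the 6 ranked so singly. The part of these cells in the globin result was not tested. Hepatocyte markers, which would mark fetal liver, summed to 22.8 to 35.5 over Alb, Afp, Ttr and Apoa1, all below the filter. The 5 dermal fibroblast markers summed to 21669, 25364, 27969 and 18979, lowest on control 1 and mutant 2. Singly, Col1a1, Dpt and Twist2 were lowest on those arrays. Col1a2 (6762, 6526, 7388 and 5771) and Col3a1 (8353, 7931, 8886 and 6793) were higher on control 1 than on control 2. Keratinocyte and skeletal muscle markers were highest on mutant 1, at 2825 and 8660.

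The genes whose pattern over the 4 arrays was most like that of the embryonic chains were found by the root mean square distance between centred log2 profiles, among 1881 genes with at least 50% of the embryonic range. They were Rasgef1b, Apoe, Slc39a8, Slc5a6 and Cox6b2, at distances of 0.038 to 0.059. Apoe, which encodes a lipoprotein that macrophages and other cells secrete, gave 2308, 851, 961 and 1798, and Rasgef1b gave 71.2, 17.7, 20.3 and 56.0. For the adult chains, among 9850 genes, the nearest were Actb, Pnisr, Pde8a, Slc25a4 and Rps4x at 0.011 to 0.014. Actb, the cytoskeletal actin, gave 6739, 5689, 6444 and 5212 and Rps4x, a ribosomal protein, 8383, 6885, 7914 and 6542, both abundant transcripts of most cells. With 4 arrays such likeness is a description only.

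The authors' deposited table lists 153 of the 45101 probe sets as changed, among them 0 of the 19 members and 0 other erythroid genes. With so short a list, a count of 0 among so few probe sets says little about them.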

How the data were processed

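RNA labelled with biotin was measured on 4 arrays, 2 per label. The sample titles number the samples and do not say how many embryos went into each. The deposited table holds a linear signal intensity for each probe set, scaled by array. GCOS and MAS5 are named per the submitters' processing notes, without versions. A second deposited table gives the authors' fold, a ratio of mutant to control, after GCRMA, a Welch test and a fold filter, per the file headers. Its 4 columns for single samples were not used. No read depth applies, and the number of arrays limits precision.

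Of 45101 probe sets, 64 array controls were left out. The annotation names a single gene for 34958, more for 932 and no gene for 9211. A GRCm38.p6 table served to update 34754 symbols, of which 0 changed. On log2(signal + 16), probe sets at or above the median mean of 5.515 were tested, 22519 in all, with limma 3.58.1 in R 4.3.3 (lmFit, eBayes with trend, two-sided), Benjamini-Hochberg adjustment and a threshold of 0.05. The code was tested on simulated data. Differences between gene groups used exact permutation tests. Hbb-b1 and Hbb-b2 share their brightest probe set, which was counted once. Each other gene is its brightest probe set.

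Members and lists were chosen with earlier results of these data known. Genes named are all members, the 3 highest and 3 lowest of the other erythroid genes, the 5 nearest in pattern to each chain class, and those said to be chosen after their values were seen. Alternatives were other pseudocounts, filters, scalings, blocks and tests, probe set rules and leaving out each array. A scan block was not possible, since all arrays share a day and each has its own module. Numbers of the labels did not pair arrays: deviations of same-numbered arrays correlated at -0.616 over 22519 probe sets. Summaries were made in Python 3.11.15.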

Additional observations from a re-analysis of the deposited data

How the results depend on the processing

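No member passed the limma threshold under any alternative run, and the adjusted p of single members ranged from 0.221 to 1. Of 189 values of member probe sets under alternatives, 23 reversed in sign, all when 1 array was left out. In those fits the log2 difference ranged from -0.92 to 1.2 for Hba-x, from -0.45 to 0.50 and -0.35 to 0.75 for the tested Hbb-bh1 probe sets, and from -0.95 to 0.20, -0.96 to 0.20 and -1.18 to 0.49 for Hbb-y. It ranged from -0.09 to 0.24, -0.20 to 0.09 and -0.18 to 0.11 for the shared adult alpha probe sets, from -0.26 to 0.02 for the shared adult beta one, from -0.03 to 0.32 for Alas2, and from -0.05 to 0.21 and -0.15 to 0.24 for Slc4a1. Hbb-b2 kept its sign, as groups without overlap must, at -0.15 to -0.11 and -0.77 to -0.43. A lone array is there assumed to vary like the other group. Leaving out 1 array also moved embryonic minus adult from -0.55 to 0.68, its beta-like part from -0.49 to 0.55, its alpha-like part from -0.76 to 1.10, the red cell level from 0.01 to 0.18, adult minus red cell from -0.32 to -0.02 and embryonic minus red cell from -0.71 to 0.50. With log2 of summed signals, embryonic minus adult and its beta-like part were both -0.25, and with a pseudocount of 64 the beta-like part was -0.02; the cause was not tested. With the brighter probe set of Hbb-b2 alone added to the adult mean, a choice made after seeing the data, embryonic minus adult was 0.24, its beta-like part 0.27 and adult minus red cell -0.34. Summed signals moved embryonic minus red cell from -0.11 to -0.45. Over the whole array, limma calls numbered 0, and 0 to 1 without 1 array. An equal variance t-test at the methods' threshold gave 5 and the methods' t-test, added after seeing the data, 3, with 0 after Benjamini-Hochberg adjustment. With the replicate number as a block, 0 probe sets were called and embryonic minus adult was 0.06. A crossed pairing, also added after seeing the data, gave 108 calls, 0 of them members. With 2 arrays per label only large differences can pass, and signals below the filter have no usable order.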
